A study of Mus musculus with 18 samples.

Results

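The 46 genes described here encode lysosomal enzymes, lysosomal membrane proteins, subunits of the vacuolar proton pump (V-ATPase), and the transcription factors Tfe3 and Tfeb with the nutrient-sensing genes Flcn and Rragd that control them. They were taken by gene symbol from a list of lysosomal genes, which was chosen with earlier results of these data known. Their counts are therefore descriptions beside the share of all genes. In the table of 18204 genes used here, 45 of the 46 had a row. Rragd was not analysed here. All 45 lay above the limit on low expression and were tested among 16383 genes.

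RNA-seq was performed on J774.1 cells, a mouse macrophage cell line, in 18 samples that fall into 6 groups of 3 biological replicates. Wildtype cells and Ctbp1/2 double knockout (dKO) cells were each treated for 4 h with vehicle (PBS/DMSO), with 1.5 mM MTOB or with 250 µM 4-Cl-HIPP. Both compounds are substrate-competitive inhibitors of CTBP1 and CTBP2, transcriptional co-repressors with a dehydrogenase fold, and the comparison of the genotypes asks whether a drug response needs the CTBPs. The dKO was made by electroporation of Cas9 ribonucleoproteins against Ctbp1 and Ctbp2 followed by single-cell outgrowth. How many clones of each genotype were used is not stated, so genotype and clone cannot be told apart, and the 2 inhibitors were given at different doses.

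Lysosomes degrade proteins, glycans and lipids taken up by endocytosis, phagocytosis and autophagy, and macrophages hold many of them. Their hydrolases work at the low pH that the V-ATPase maintains. TFEB and TFE3 are basic helix-loop-helix transcription factors that bind E-box-type sites (CLEAR elements) near the start of lysosomal and autophagy genes. In fed cells the FLCN complex and the RAG GTPases, among them RRAGD, bring both factors to mTORC1 at the lysosomal surface, where phosphorylation keeps them in the cytoplasm, and both are known to be controlled largely by this route and not only by their mRNA level.

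Promoter sequences of 39 of the 46 genes were found in RefSeq (windows of 250 bases before to 50 bases after an annotated start, GRCm38.p6 table), and Ctsb, Ctsh, Galns, Asah1, Atp6v1b2, Atp6v1c1 and Atp6v1h had no entry. The E-box letters TCACGTG, which contain CACGTG, were read on either strand in 12 of the 39 (30.8%), namely Atp6v0b, Atp6v0d1, Atp6v1a, Cln3, Ctsa, Ctsd, Gaa, Gla, Glb1, Lamp1, Mcoln1 and Naglu. The same letters were present in 4.29% of all 27025 genes of the promoter table, in 6.75% of the 10437 tested genes with an entry, and in 3.77% of single windows. The 6-letter CACGTG, which the 7 letters contain, was found in 33.3% of these genes, in 8.09% of all genes and in 11.4% of the tested genes with an entry. A match is a stretch of letters and no evidence of binding.

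The match nearest to the RefSeq start is shown with 10 bases on each side for 6 genes, because Atp6v1a, Ctsd, Glb1 and Lamp1 differed between the genotypes under every treatment, Naglu fell with MTOB, and Mcoln1, an established TFEB target, passed in no comparison. Positions are GRCm39 positions found by exact match, the sequence is written 5′ to 3′ on the strand of the gene, and capitals mark TCACGTG or, where both strands match, TCACGTGA.
Lamp1, chr8:13209135-13209161, plus strand: cgtgaccacaTCACGTGcggaacggag
Ctsd, chr7:141941646-141941673, minus strand: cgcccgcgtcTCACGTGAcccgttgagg
Glb1, chr9:114230087-114230113, plus strand: tgcttctgagTCACGTGgcctacagag
Atp6v1a, chr16:43959737-43959764, minus strand: tttttttaaaTCACGTGAtaggcttaac
Naglu, chr11:100960836-100960862, plus strand: aaccttcaggTCACGTGgcccgaggtc
Mcoln1, chr8:3550463-3550490, plus strand: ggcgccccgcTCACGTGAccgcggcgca
In the GENCODE vM39 annotation the Glb1 match lay 41 bases upstream of the gene, and the other 5 lay in an annotated exon of their own gene. The Atp6v1a match also lay in an annotated exon of Naa50. The Lamp1 window held 4 matches, the Ctsd and Mcoln1 windows 2 each and the other 3 windows 1 each, where a match on both strands at the same place counts once.

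Values are TPM, a transcript abundance scaled for transcript length, which summed to between 999766 and 999897 in each sample. A gene is said to have risen or fallen, or to have passed, where the adjusted p of limma on log2(TPM + 1) was below 0.05 (Benjamini-Hochberg over all 16383 genes), and log2 differences are on that scale. Groups of 3 did not overlap where all values of 1 group lay above all values of the other. Between the genotypes this held for 13.4% to 15.1% of all genes as higher in dKO cells and 10.1% to 11% as lower. With MTOB it held for 9.51% to 10.6% as higher and 11.5% to 12% as lower. With 4-Cl-HIPP the shares were 7.65% to 8.01% and 4.94% to 5.73%. Libraries of the same group correlated at Pearson r = 0.983 to 0.987 across genes. The lowest pairs were dKO MTOB replicate 1 with replicates 2 (0.9825) and 3 (0.9836). The median r of a library to all others was 0.9765 to 0.9797, and that of dKO MTOB replicate 1 was 0.9774. Ctbp1 fell in dKO cells (212, 238 and 204 TPM in wildtype against 24.4, 25.2 and 25.6 TPM under vehicle, log2 difference -3.07, adjusted p = 1.61e-10), and Ctbp2 was lower by a small amount (log2 difference -0.28, adjusted p = 0.00427). The paper reports a stop and a frameshift in both genes, and loss of CTBP1 and CTBP2 protein by western blot. The mRNA level does not measure that loss. The 10 macrophage markers summed to 2416 to 3545 TPM, whereas the few T cell, B cell, fibroblast, epithelial and neutrophil markers with a row summed to at most 2.1 TPM in every sample. In bulk RNA, a change in the share of cells and a change in RNA per cell cannot be told apart.

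The levels of the 45 genes spanned a wide range. In wildtype vehicle cells the highest mean levels were those of Laptm5, a lysosomal membrane protein of haematopoietic cells (691 TPM), Cd68, the macrophage sialomucin (554 TPM), and Lamp1, the major glycoprotein of the lysosomal membrane (391 TPM). The lowest were those of Gpnmb, a glycoprotein induced under lysosomal stress (6.01 TPM), Gla, alpha-galactosidase A (5.66 TPM), and the cysteine protease Ctsh (0.233 TPM). Summed over the 45 genes, wildtype samples held 5616 to 5869 TPM and dKO samples 6198 to 6500 TPM, with no overlap. Under vehicle the sum was 5642 to 5869 TPM in wildtype and 6472 to 6496 TPM in dKO.

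dKO cells carried more lysosomal mRNA than wildtype cells under each of the 3 treatments. Under vehicle, 15 of the 45 genes were higher and 2 were lower in dKO cells (37.8%), against 10.7% of all genes tested in either direction (7.01% higher and 3.72% lower) and 15.4% of those above 100 in mean normalized count. The median log2 difference was 0.11 over these genes and 0.01 over all genes. With a fold above 1.5 required as well, 5 were higher (Ctsh, Ctsl, Man2b1, Scarb2 and Tpp1), against 3.28% of all genes, and 1 was lower (Gpnmb), against 1.55%. Under MTOB 14 were higher and 3 lower, against 11.2% of all genes in either direction (6.98% higher and 4.18% lower), and under 4-Cl-HIPP 15 were higher and 2 lower, against 10.2% (6.6% higher and 3.63% lower). With the fold required, Scarb2 was higher (3.33% of all genes) and Gpnmb lower (1.62%) under MTOB, and none was higher (3.14%) and Gpnmb was lower (1.58%) under 4-Cl-HIPP. The 3 comparisons share no sample. Higher under all 3 treatments were 12 of the 45, against 4.14% of all genes tested, and lower under all 3 were Ctss and Gpnmb, against 1.82%. Of the 12, Atp6v1a, Ctsd, Ctsz, Lamp1, Man2b1, Psap and Scarb2 kept all 3 calls under every alternative and without any single library. Atp6v1b2, Cd68, Glb1, Laptm5 and Lipa lost at least 1 of their calls in some setting, as did Ctss and Gpnmb. Summed over the 10 macrophage markers the level was 2827 to 2917 TPM in wildtype and 2502 to 2576 TPM in dKO cells under vehicle. The single markers went both ways, with Cd14 at 462, 440 and 473 TPM against 135, 145 and 149 TPM and Itgam at 21, 13.4 and 13 TPM against 44.1, 51.3 and 48.2 TPM, and their part in these differences was not tested.

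**Figure D1:**
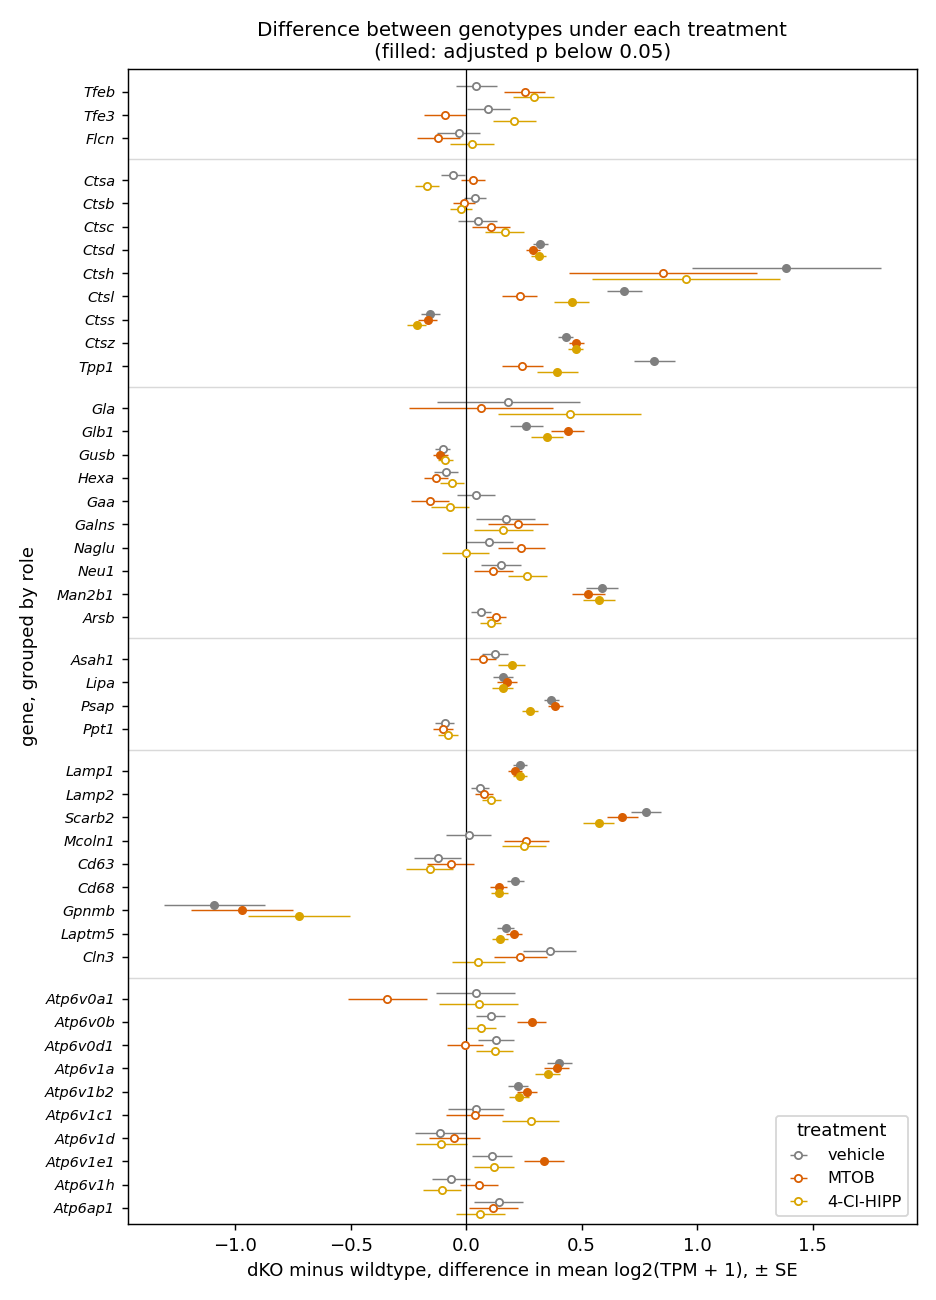
Difference between dKO and wildtype cells for the 45 genes, grouped by role from top to bottom (regulators, proteases, glycan and sulfate hydrolases, lipid hydrolases, membrane proteins, V-ATPase). The horizontal axis is the difference in mean log2(TPM + 1), points are estimates with their standard error (n = 3 against 3) under vehicle (grey), MTOB (orange) and 4-Cl-HIPP (yellow), and filled points passed. Most filled points lie to the right of 0, and Gpnmb and Ctss lie to the left under each treatment.

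Among the 9 proteases, 5 were higher and 1 was lower in dKO cells under vehicle (median log2 difference 0.32). Of all genes 7.01% were higher and 3.72% lower. Ctsz, the carboxypeptidase cathepsin Z, measured 368, 371 and 376 TPM in wildtype and 497, 509 and 498 TPM in dKO vehicle cells (log2 difference 0.43 ± 0.03 SE, adjusted p = 1.25e-07). Ctsd, the aspartic protease cathepsin D, measured 239, 244 and 245 TPM against 306, 301 and 303 TPM (0.32 ± 0.03, adjusted p = 3.36e-06). In both genes every dKO sample lay above every wildtype sample, as it did under MTOB and 4-Cl-HIPP. Tpp1, tripeptidyl peptidase 1, had the widest gap of the proteases with more than a few TPM, with 35.8, 38.7 and 40.3 TPM in wildtype and 67.5, 70.6 and 66 TPM in dKO cells (log2 difference 0.81 ± 0.09, fold 1.76, adjusted p = 1.04e-05). Ctsl, the endopeptidase cathepsin L, measured 126, 139 and 124 TPM against 221, 200 and 206 TPM (0.69 ± 0.07, fold 1.61, adjusted p = 1.09e-05). Under MTOB neither Tpp1 (0.24, adjusted p = 0.102) nor Ctsl (0.23, adjusted p = 0.0617) passed between the genotypes. Tpp1 passed there without dKO MTOB replicate 1 (0.0343), and Ctsl without dKO MTOB replicate 2 (0.0418) or wildtype 4-Cl-HIPP replicate 1 (0.0303) or 3 (0.0401). Under 4-Cl-HIPP both passed (0.40 and 0.46).

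Ctss, cathepsin S, which trims the invariant chain in antigen presentation, was the protease that went down in dKO cells, with 248, 249 and 249 TPM in wildtype and 231, 217 and 222 TPM in dKO vehicle cells (log2 difference -0.15 ± 0.04, adjusted p = 0.0251). The vehicle call ended without wildtype vehicle replicate 1, 2 or 3 or dKO vehicle replicate 2 or 3 (adjusted p = 0.0641 to 0.105), and the MTOB call (-0.17, adjusted p = 0.0165) ended without wildtype MTOB replicate 1 or 2 (0.0699 and 0.0822). The 4-Cl-HIPP difference (-0.21, adjusted p = 0.00288) held without any single library. Ctsh had the largest fitted difference of the list under vehicle (log2 1.39 ± 0.41, adjusted p = 0.04) on levels of 0.481, 0 and 0.216 TPM in wildtype and 3.14, 2.94 and 0.975 TPM in dKO cells. These are among the lowest values of the list, and the call ended without wildtype vehicle replicate 1, 2 or 3, wildtype MTOB replicate 1, or dKO vehicle replicate 1 or 2 (adjusted p = 0.0512 to 0.149). Its size also depended on the pseudocount, with 0.48 to 3.06 over the other settings. The call ended with a pseudocount of 0.1 (0.0684), with the replicate block (0.0629) and in the fit of only the compared groups (0.0776). Ctsb and Ctsc did not pass between the genotypes, and Ctsa passed under 4-Cl-HIPP only in some settings, among them without dKO MTOB replicate 1 (-0.17, adjusted p = 0.0141) or 2 (0.0383) or wildtype 4-Cl-HIPP replicate 2 (0.0413).

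Of the 10 glycan and sulfate hydrolases, 2 were higher in dKO cells under vehicle and none was lower, against 7.01% and 3.72% of all genes. Man2b1, the alpha-mannosidase that trims N-glycans in the lysosome, measured 39.9, 39.9 and 41.3 TPM in wildtype and 56.9, 64.9 and 62.4 TPM in dKO cells (log2 difference 0.59 ± 0.07, fold 1.5, adjusted p = 2.57e-05), and its differences under MTOB and 4-Cl-HIPP were 0.53 and 0.58. Glb1, beta-galactosidase, measured 26, 29.2 and 27 TPM against 31.2, 32 and 35.9 TPM (0.26 ± 0.07, adjusted p = 0.0244), a call that ended without wildtype vehicle replicate 1 (0.106) or 3 (0.0778) or dKO vehicle replicate 3 (0.123). It also ended by quantile normalization (0.0616) and in the fit of only the compared groups (0.111). Under MTOB (0.44, adjusted p = 0.000478) and 4-Cl-HIPP (0.35, adjusted p = 0.00332) Glb1 passed without any single library. Gusb, beta-glucuronidase, passed as lower in dKO cells under MTOB (-0.11, adjusted p = 0.038), and that call ended without wildtype MTOB replicate 1 or 3 or dKO MTOB replicate 2 or 3 (0.0584 to 0.17). The other 7, Arsb, Gaa, Galns, Gla, Hexa, Naglu and Neu1, did not pass between the genotypes under any treatment with all libraries in the fit. Arsb passed under MTOB without dKO MTOB replicate 1 (0.17, adjusted p = 0.023) or wildtype vehicle replicate 2 (0.0407), and Neu1 under 4-Cl-HIPP without dKO MTOB replicate 2 (0.0489), dKO vehicle replicate 2 (0.0494) or wildtype 4-Cl-HIPP replicate 2 (0.0247).

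Of the 4 lipid hydrolases and activators, 2 were higher in dKO cells under vehicle (Psap and Lipa), against 7.01% of all genes. Psap encodes prosaposin, the precursor of the saposins that present sphingolipids to their hydrolases, and measured 234, 244 and 233 TPM in wildtype against 306, 306 and 308 TPM in dKO vehicle cells (log2 difference 0.37 ± 0.03, adjusted p = 1.65e-06). The dKO values lay above the wildtype values under MTOB (0.39) and 4-Cl-HIPP (0.28) as well, without overlap. Lipa, the acid lipase that releases cholesterol from lipoproteins, was higher by 0.16, 0.18 and 0.16 on the log2 scale under vehicle, MTOB and 4-Cl-HIPP. Each of the 3 Lipa calls ended without some libraries of its own groups: wildtype vehicle replicate 1 or 2 or dKO vehicle replicate 2 or 3 (adjusted p = 0.0607 to 0.139), wildtype MTOB replicate 1 or 2 or dKO MTOB replicate 2 or 3 (0.0518 to 0.0692), and wildtype 4-Cl-HIPP replicate 1 or 2 or any dKO 4-Cl-HIPP replicate (0.0662 to 0.137). Asah1, acid ceramidase, passed under 4-Cl-HIPP only (0.20, adjusted p = 0.0398), and that call ended without wildtype MTOB replicate 3 or any library of its own 2 groups (0.0511 to 0.167). Ppt1, palmitoyl-protein thioesterase 1, did not pass and had the opposite sign, with 110, 114 and 110.5 TPM in wildtype and 103, 105 and 105 TPM in dKO vehicle cells.

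Among the 9 lysosomal membrane proteins, 4 were higher and 1 was lower in dKO vehicle cells, against 7.01% and 3.72% of all genes. Scarb2 (LIMP-2), the receptor that carries glucocerebrosidase to the lysosome, had 21.8, 19.8 and 19 TPM in wildtype and 36.8, 34.3 and 34.9 TPM in dKO cells (log2 difference 0.78 ± 0.07, fold 1.72, adjusted p = 9.08e-07). Lamp1 measured 379, 398 and 397 TPM against 459, 469 and 450 TPM (0.23 ± 0.03, adjusted p = 7.35e-05), and Lamp2 did not pass. Laptm5 measured 687, 691 and 695 TPM against 779, 781 and 773.7 TPM (0.17 ± 0.04, adjusted p = 0.00464). For all 3 the groups did not overlap under vehicle, MTOB or 4-Cl-HIPP, although the Laptm5 call under 4-Cl-HIPP (adjusted p = 0.0142) ended without wildtype 4-Cl-HIPP replicate 2 (0.0765) or dKO 4-Cl-HIPP replicate 1 (0.0796). Cd68, itself one of the macrophage markers, was higher by 0.21 (adjusted p = 0.00102) under vehicle and by 0.14 under each inhibitor. The 2 Cd68 calls under inhibitors ended without wildtype MTOB replicate 2 or 3 or dKO MTOB replicate 2 or 3 (adjusted p = 0.0603 to 0.107), and without wildtype 4-Cl-HIPP replicate 1 or 2 or any dKO 4-Cl-HIPP replicate (0.0509 to 0.0715).

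Gpnmb was the member with the largest fall in dKO cells. It measured 7.69, 6.35 and 4 TPM in wildtype vehicle and 2.54, 2.37 and 1.78 TPM in dKO vehicle cells, 3.21, 3.63 and 2.14 TPM against 1.23, 0.847 and 0.973 TPM under MTOB, and 4.86, 2.76 and 3.21 TPM against 1.41, 1.62 and 2.27 TPM under 4-Cl-HIPP. The groups did not overlap under any treatment. The log2 differences were -1.09 ± 0.22 (adjusted p = 0.0035), -0.97 ± 0.22 (0.00818) and -0.72 ± 0.22 (0.0492). Over the other settings, among them the pseudocounts, they ranged from -1.36 to -0.59, -1.45 to -0.41 and -0.98 to -0.34, and the vehicle call ended in the fit of only the compared groups (0.0553). The 4-Cl-HIPP call ended there too (0.13), with a pseudocount of 5 (0.0913), without a filter (0.0537) and without a variance trend (0.0505). It also ended without any 1 of 13 of the 18 libraries (adjusted p = 0.0523 to 0.209), and only wildtype vehicle replicates 1 and 3, wildtype MTOB replicate 3, wildtype 4-Cl-HIPP replicate 2 and dKO 4-Cl-HIPP replicate 3 could each be left out without losing it. Mcoln1, the lysosomal calcium channel TRPML1, did not pass in any comparison with all libraries in the fit. It stood at 29.7, 31.9 and 33.1 TPM in wildtype and 29.9, 33.3 and 32.2 TPM in dKO vehicle cells (0.01, 95% interval -0.20 to 0.22). It measured 26.2, 25.2 and 29.2 TPM in wildtype and 27.7, 33.3 and 36.5 TPM in dKO cells under MTOB, and 34.7, 30.5 and 33.7 TPM in wildtype cells under 4-Cl-HIPP. Under MTOB (0.26, adjusted p = 0.114) it passed only without dKO MTOB replicate 1 (0.37, adjusted p = 0.0181), and under 4-Cl-HIPP it did not pass (0.25, adjusted p = 0.136). Cd63 did not pass, and Cln3 passed under vehicle without dKO vehicle replicate 2 (0.47, adjusted p = 0.0171) or wildtype vehicle replicate 1 (0.50, adjusted p = 0.00575).

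**Figure D2:**
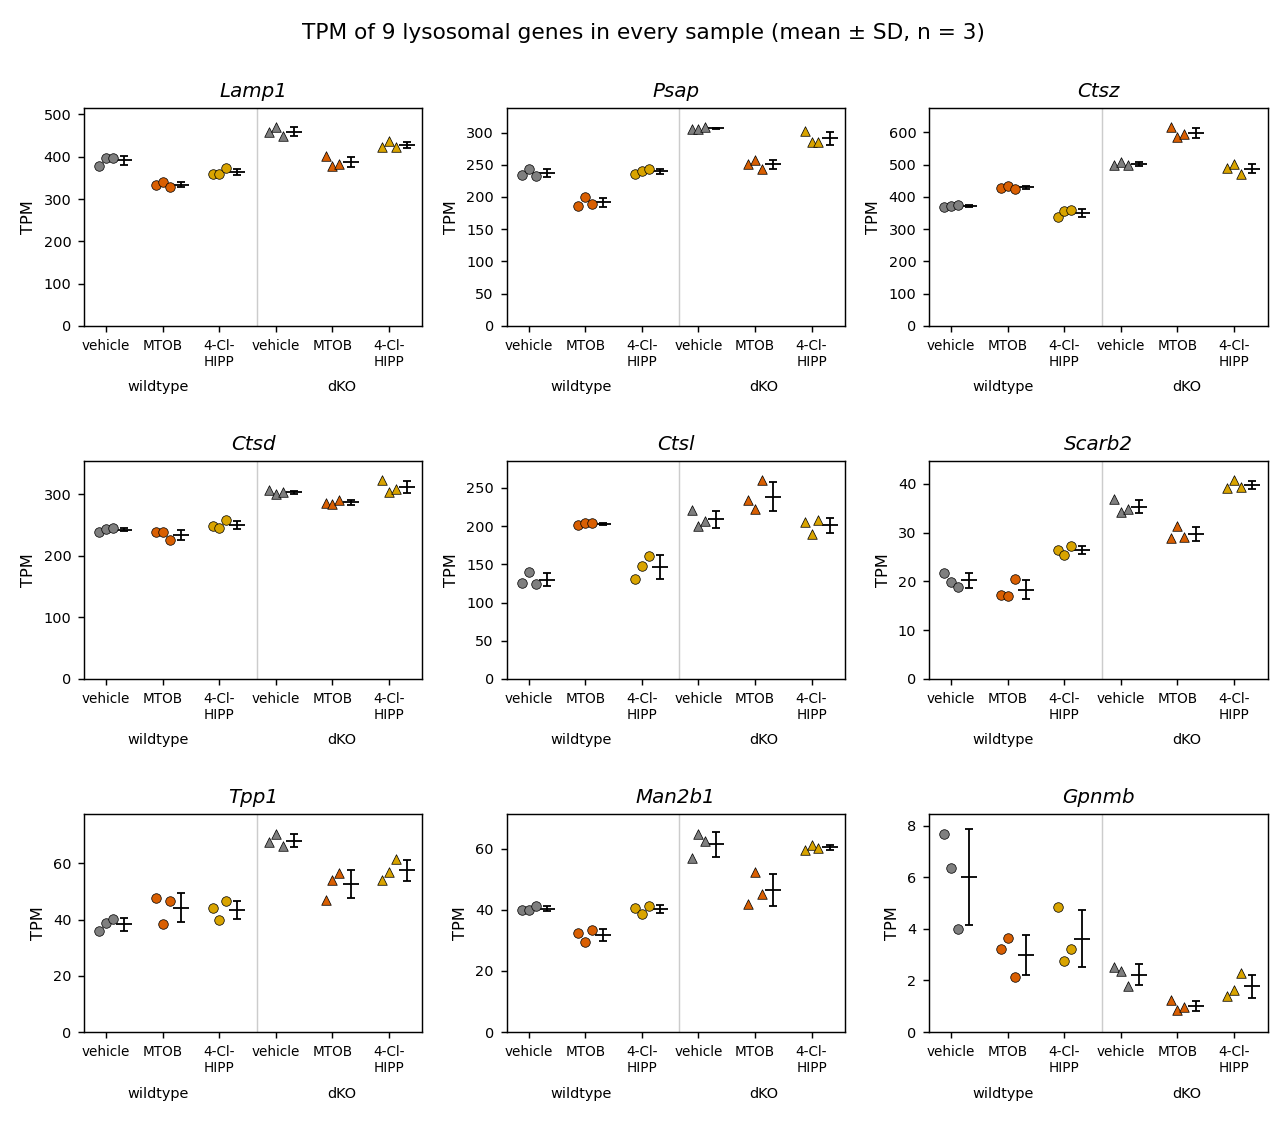
TPM of 9 lysosomal genes in all 18 samples. Each point is 1 sample, circles are wildtype and triangles dKO cells, the colour gives the treatment (vehicle grey, MTOB orange, 4-Cl-HIPP yellow), and the bar beside each group is the mean ± SD (n = 3). In Lamp1, Psap, Ctsz, Ctsd and Scarb2 each dKO group lies above the wildtype group of the same treatment, Lamp1, Psap and Man2b1 are lower with MTOB in both genotypes, and Gpnmb is lowest in the dKO cells given MTOB.

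The values under 4-Cl-HIPP show the same order of the genotypes. Ctsz measured 337, 355 and 360 TPM in wildtype and 489, 501 and 472 TPM in dKO cells (0.47, adjusted p = 4.75e-08), and Ctsd 249, 246 and 258 TPM against 323, 304 and 309 TPM (0.31, adjusted p = 4.39e-06). Psap measured 236, 240 and 244 TPM against 302, 285 and 285 TPM (adjusted p = 3.51e-05), and Lamp1 360, 358 and 373 TPM against 423, 437 and 424 TPM (0.23, adjusted p = 6.8e-05). In all 4 the lowest dKO sample lay above the highest wildtype sample. Man2b1 measured 40.5, 38.8 and 41.2 TPM against 59.6, 61.2 and 60.3 TPM (adjusted p = 3.35e-05), Atp6v1a 65.2, 63 and 69.3 TPM against 87.4, 82.8 and 83 TPM (adjusted p = 0.000358), and Ctsl 130, 148 and 161 TPM against 205, 190 and 208 TPM (adjusted p = 0.000604).

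Of the 10 V-ATPase subunits, 2 were higher in dKO cells under vehicle, 4 under MTOB and 2 under 4-Cl-HIPP, and none was lower (median log2 difference 0.11 under vehicle). Of all genes 7.01%, 6.98% and 6.6% were higher and 3.72%, 4.18% and 3.63% lower. Atp6v1a, the catalytic A subunit of the cytosolic part, measured 72.6, 67.6 and 65.8 TPM in wildtype and 93.1, 93.1 and 87.2 TPM in dKO cells (0.40 ± 0.05, adjusted p = 9.98e-05), and 62, 62.6 and 61.2 TPM against 74.8, 85.6 and 85.1 TPM under MTOB (0.39). Atp6v1b2, the B subunit that alternates with it in the ring, measured 64, 67 and 62.5 TPM against 76.5, 76.4 and 73.9 TPM (0.23 ± 0.04, adjusted p = 0.0023), and 73.5, 74.2 and 72.4 TPM against 85.6, 90.6 and 88.6 TPM under MTOB (0.26). Both were separated between genotypes under 4-Cl-HIPP too (0.35 and 0.23). Atp6v0b, of the membrane ring, was higher in dKO cells under MTOB (0.28, adjusted p = 0.00694, and 0.0741 in the fit of only the compared groups), as was Atp6v1e1 of the stalk (0.34, adjusted p = 0.0185), whose call ended without wildtype MTOB replicate 1 or 2 or dKO MTOB replicate 1 or 3 (0.0603 to 0.0804). The other 6, Atp6v0a1, Atp6v0d1, Atp6v1c1, Atp6v1d, Atp6v1h and Atp6ap1, did not pass between the genotypes.

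The mRNAs of the regulators Tfeb, Tfe3 and Flcn did not pass between the genotypes. Mitf, of the same family as Tfeb and Tfe3, did pass and is described with the second list. Tfeb (ENSMUSG00000023990) measured 12.8, 15.4 and 14.9 TPM in wildtype vehicle, 13.8, 14 and 12 TPM in wildtype MTOB and 12.2, 14.2 and 13.5 TPM in wildtype 4-Cl-HIPP cells. In dKO cells it measured 15, 13.7 and 15.8 TPM under vehicle, 17.2, 16 and 14.9 TPM under MTOB and 16.2, 16.4 and 16.8 TPM under 4-Cl-HIPP. The genotypes overlapped under vehicle and were separated under each inhibitor, as were 13.4% (MTOB) and 14.4% (4-Cl-HIPP) of all genes in that direction. The log2 differences were 0.04 (adjusted p = 0.857), 0.25 (0.0904) and 0.29 (0.0506). The last lay at the threshold and passed without wildtype vehicle replicate 1 (0.038), wildtype MTOB replicate 3 (0.0439) or dKO MTOB replicate 1 (0.0474). With all libraries it passed with a pseudocount of 5 (0.0414) and without a variance trend (0.0427). Flcn (ENSMUSG00000032633), a folliculin-complex gene and itself a TFE target, measured 21, 22.5 and 21.6 TPM in wildtype and 21.3, 20.4 and 21.9 TPM in dKO vehicle cells, and 20.5, 21 and 22.5 TPM against 21.1, 20 and 17.6 TPM under MTOB. Under 4-Cl-HIPP it measured 18, 19.5 and 22.2 TPM against 23.3, 18 and 19.6 TPM. The groups overlapped under every treatment, and its differences between genotypes were -0.03, -0.12 and 0.03, each with a standard error of 0.09.

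Among Tfeb, Tfe3 and Flcn, Tfe3 (ENSMUSG00000000134) was the gene whose mRNA changed with a drug. It measured 51.9, 53 and 48.9 TPM in wildtype vehicle cells and 71.4, 73.8 and 69.7 TPM after MTOB, without overlap (log2 difference 0.47 ± 0.09, fold 1.39, adjusted p = 0.00424), and passed without any single library. In dKO cells it measured 56.8, 52.5 and 55.4 TPM under vehicle and 58, 78 and 67.1 TPM after MTOB, again without overlap but with a wider spread (0.29 ± 0.09, adjusted p = 0.0809). Of all genes 9.51% were higher without overlap in that comparison. Without dKO MTOB replicate 1, the lowest of the 3, the dKO difference was 0.39 (adjusted p = 0.0145), and with all libraries it passed after rescaling by median of ratios (0.32, adjusted p = 0.0418). After 4-Cl-HIPP it measured 46.9, 45.8 and 50.3 TPM in wildtype and 48.6, 61.3 and 56.4 TPM in dKO cells (-0.10 and 0.01 against vehicle). The difference between the 2 MTOB responses was 0.19 (95% interval -0.09 to 0.46, adjusted p = 0.832). Tfeb did not pass with either inhibitor in either genotype, nor did Flcn.

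**Figure D3:**
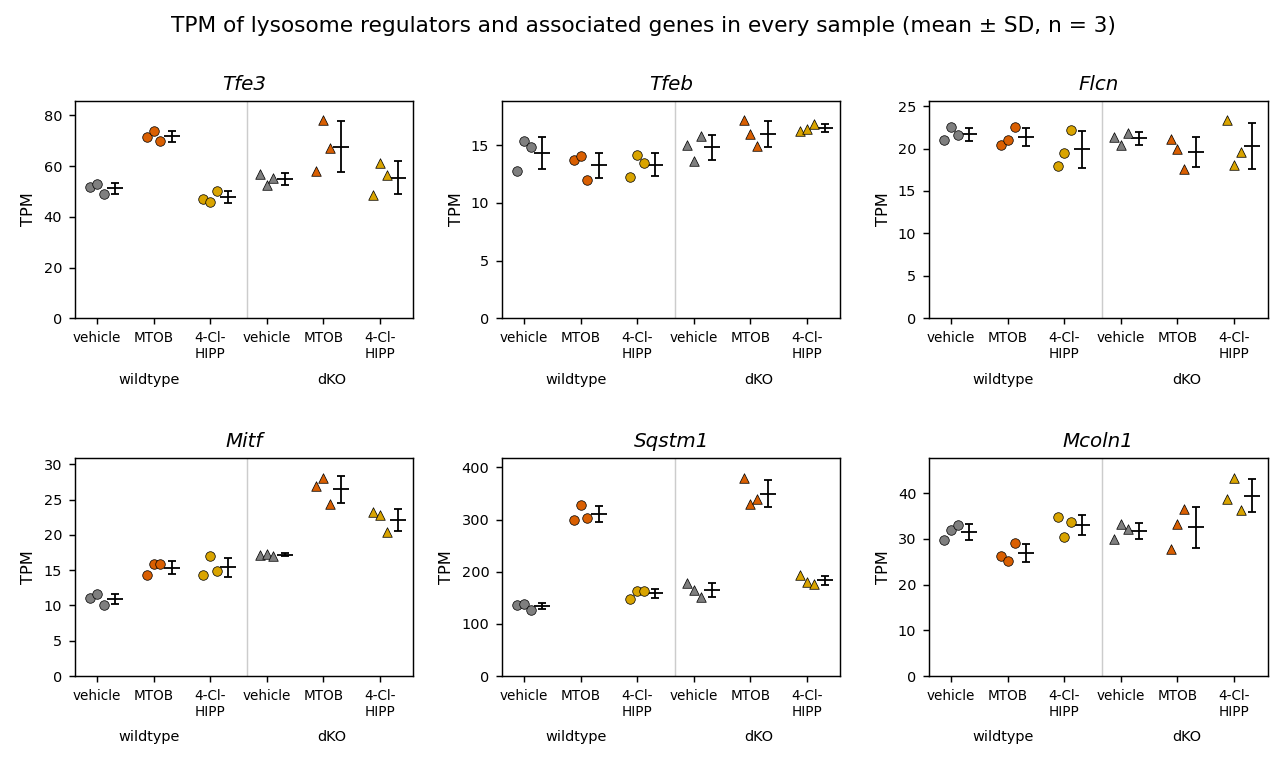
TPM of the regulators Tfe3, Tfeb and Flcn, of the related genes Mitf and Sqstm1, and of the calcium channel gene Mcoln1 in all 18 samples. Circles are wildtype and triangles dKO samples, colours give the treatment (vehicle grey, MTOB orange, 4-Cl-HIPP yellow), and bars are the mean ± SD (n = 3). Tfe3, Mitf and Sqstm1 lie above vehicle after MTOB in both genotypes, while Tfeb and Flcn vary within a narrow range.

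MTOB moved lysosomal genes in both directions. In wildtype cells 8 of the 45 rose and 9 fell (37.8%), against 7.26% of all genes tested (3.8% higher and 3.46% lower) and 12.5% of those above 100 in mean normalized count, and the median log2 difference was -0.05. In dKO cells 3 rose and 8 fell (24.4%), against 6.58% of all genes (3.04% higher and 3.54% lower), with a median of -0.07. The 2 comparisons share no sample. Passing in both genotypes were 3 that rose (Atp6v1b2, Ctsz and Neu1, against 1.98% of all genes) and 6 that fell (Arsb, Gusb, Lamp1, Laptm5, Man2b1 and Psap, against 1.7%). Across the 45 genes the 2 sets of log2 differences had a Pearson r of 0.76 and a Spearman rho of 0.71, and 37 had the same sign; the points are genes of the same libraries and are not independent replicates. With a fold above 1.5 required, Atp6v0a1 and Ctsl rose (1.56% of all genes) and Gpnmb fell (0.452%) in wildtype cells, and none rose (1.15%) or fell (0.476%) in dKO cells. Summed macrophage markers stood at 3365 to 3545 TPM in wildtype and 2586 to 2913 TPM in dKO cells after MTOB. Here too they went both ways, with Cd14 at 857, 824 and 820 TPM in wildtype MTOB cells, above vehicle, and Csf1r at 795, 727 and 785 TPM, below its vehicle values of 901, 845 and 942 TPM, and their part was not tested.

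**Figure D4:**
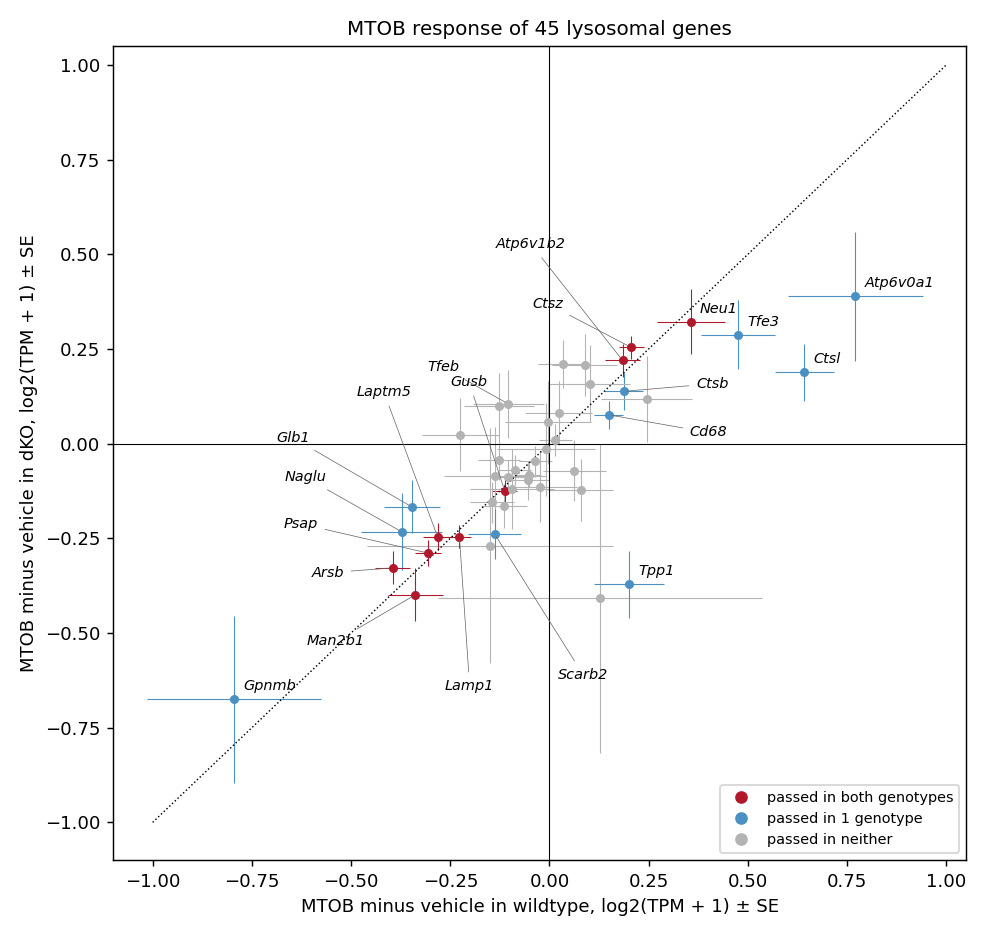
Response of the 45 genes to MTOB in wildtype cells (horizontal axis) and in dKO cells (vertical axis), each as the difference in mean log2(TPM + 1) from vehicle with its standard error (n = 3 against 3). Red points passed in both genotypes, blue points in 1 and grey points in neither, and the dotted line marks equal responses. The points run along the line (Pearson r = 0.76), with Tpp1 to the lower right and Ctsl, Tfe3 and Atp6v0a1 below the line.

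The genes that fell in wildtype cells were 5 glycan hydrolases, 3 membrane proteins and Psap. Of the 10 glycan and sulfate hydrolases 5 fell and 1 rose in wildtype cells, and 3 fell and 1 rose in dKO cells. Of all genes 3.46% fell and 3.8% rose in wildtype cells, and 3.54% fell and 3.04% rose in dKO cells. Arsb, arylsulfatase B, which removes sulfate from dermatan and chondroitin chains, went from 94.9, 87.7 and 97.9 TPM to 71.4, 70.6 and 70.4 TPM in wildtype cells (log2 difference -0.40 ± 0.04, adjusted p = 2.89e-05). In dKO cells it went from 96.4, 99.8 and 97.1 TPM to 73.8, 78.7 and 80.8 TPM (-0.33 ± 0.04, adjusted p = 0.000219). Man2b1 went from the vehicle values above to 32.3, 29.6 and 33.4 TPM in wildtype (-0.34, adjusted p = 0.00681) and to 41.9, 52.4 and 45 TPM in dKO cells (-0.40, adjusted p = 0.0023), where the call ended in the fit of only the compared groups (0.128). Both genes were lower in every MTOB sample of either genotype than in the matching vehicle samples. Glb1 fell to 21.7, 21.4 and 20.9 TPM in wildtype cells (-0.35, adjusted p = 0.00576), and measured 31.4, 29.9 and 26.8 TPM in dKO cells, where it did not pass.

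Neu1, the sialidase that starts the breakdown of sialylated glycans, was the hydrolase of this class that rose, from 16.1, 17.2 and 16.1 TPM to 20.9, 22.7 and 20.4 TPM in wildtype (0.36, adjusted p = 0.0177) and from 16.7, 20.4 and 18.2 TPM to 25.1, 21 and 23.7 TPM in dKO cells (0.32, adjusted p = 0.0335). The wildtype call ended without wildtype vehicle replicate 1 or 3 or wildtype MTOB replicate 2 (0.0607 to 0.08), and the dKO call without dKO vehicle replicate 1 or 3 or dKO MTOB replicate 1 or 3 (0.0896 to 0.138). Naglu, alpha-N-acetylglucosaminidase, fell in wildtype cells (-0.37, adjusted p = 0.0378), a call that ended without any wildtype vehicle replicate or without wildtype MTOB replicate 2 or 3 (0.0507 to 0.168). Gusb fell by about the same small amount in both genotypes (-0.11, adjusted p = 0.0466, and -0.12, adjusted p = 0.0317). Its wildtype call held only without wildtype MTOB replicate 3, wildtype 4-Cl-HIPP replicate 2, dKO MTOB replicate 1 or dKO 4-Cl-HIPP replicate 1 and ended without any of the other 14 (0.0504 to 0.179), and its dKO call ended without dKO vehicle replicate 1 or 2 or dKO MTOB replicate 2 or 3 (0.0704 to 0.118).

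Psap was the lipid gene that passed with MTOB, with 186, 199 and 189 TPM in wildtype (log2 difference -0.31 ± 0.03, adjusted p = 2.8e-05) and 252, 258 and 243 TPM in dKO MTOB cells (-0.29 ± 0.03, adjusted p = 5.96e-05). In both genotypes all MTOB samples lay below all vehicle samples. Lamp1 fell to 334, 340 and 329 TPM in wildtype (-0.23 ± 0.03, adjusted p = 0.000179) and to 401, 379 and 382 TPM in dKO cells (-0.25 ± 0.03, adjusted p = 0.000105), so that dKO cells given MTOB overlapped in Lamp1 with wildtype cells given vehicle. Laptm5 fell to 574, 566 and 564 TPM (-0.28 ± 0.04, adjusted p = 0.000118) and to 629, 659 and 682 TPM (-0.25 ± 0.04, adjusted p = 0.000509). Arsb, Lamp1, Laptm5 and Psap passed in both genotypes under every alternative processing tried and without any single library.

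Scarb2 passed as lower in dKO cells, at 28.8, 31.4 and 29.1 TPM (-0.24, adjusted p = 0.0448), and measured 17.3, 17.1 and 20.5 TPM in wildtype MTOB cells. That call ended without any 1 of 12 libraries (adjusted p = 0.0536 to 0.148), the 6 that could be left out being wildtype vehicle replicates 1 and 3, the 3 wildtype MTOB replicates and dKO MTOB replicate 2. Gpnmb fell in wildtype cells (log2 difference -0.80 ± 0.22, adjusted p = 0.0399), and the call ended without wildtype vehicle replicate 1 or 2, wildtype MTOB replicate 1 or 3, dKO vehicle replicate 2, dKO MTOB replicate 3 or dKO 4-Cl-HIPP replicate 2 (0.0513 to 0.166). It also ended with a pseudocount of 0.1 (0.053) and in the fit of only the compared groups (0.198). In dKO cells its MTOB samples also lay below the vehicle samples (-0.68 ± 0.22, adjusted p = 0.0877), as in 11.5% of all genes. With a pseudocount of 0.1 the Gpnmb difference passed (-1.06, adjusted p = 0.0362). Cd68 rose in wildtype cells (0.15, adjusted p = 0.0221), which ended without wildtype vehicle replicate 1 or 3 or wildtype MTOB replicate 1 or 2 (0.0551 to 0.11).

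Among the proteases MTOB went with 3 of 9 higher and none lower in wildtype cells and 1 higher and 1 lower in dKO cells. The shares of all genes were 3.8% higher and 3.46% lower in wildtype, and 3.04% higher and 3.54% lower in dKO cells. Ctsl rose to 201, 203 and 204 TPM in wildtype cells (log2 difference 0.64 ± 0.07, fold 1.56, adjusted p = 4.85e-05), values that overlapped those of dKO vehicle cells, and measured 234, 222 and 260 TPM in dKO MTOB cells (0.19 ± 0.07, adjusted p = 0.172). Ctsz rose to 428, 435 and 424 TPM in wildtype (0.21 ± 0.03, adjusted p = 0.000544) and to 615, 585 and 594 TPM in dKO cells (0.25 ± 0.03, adjusted p = 0.000103). Each of these MTOB groups lay above its vehicle group. Ctsb, cathepsin B, rose in wildtype cells from 333, 338 and 336 TPM to 404, 373 and 371 TPM (0.19, adjusted p = 0.028), a call that ended without any wildtype vehicle replicate or without wildtype MTOB replicate 1 (0.0672 to 0.128). Tpp1 fell in dKO cells to 46.9, 54.2 and 56.4 TPM (-0.37 ± 0.09, adjusted p = 0.0184), which ended without dKO vehicle replicate 1 or 2 or dKO MTOB replicate 1 (0.0505 to 0.0831), and measured 47.7, 38.4 and 46.7 TPM in wildtype MTOB cells (0.20, adjusted p = 0.234). Ctsd did not pass with MTOB (239, 239 and 225 TPM in wildtype, and 285, 284 and 292 TPM in dKO cells).

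Of the 10 V-ATPase subunits 2 rose and none fell with MTOB in wildtype cells, against 3.8% and 3.46% of all genes. In dKO cells 1 rose, against 3.04% of all genes. Atp6v0a1, of the membrane arm, rose in wildtype cells from 20.4, 18.9 and 21.4 TPM to 36.4, 30.4 and 39.5 TPM (log2 difference 0.77 ± 0.17, fold 1.71, adjusted p = 0.0109), which lost its call without wildtype MTOB replicate 3 (0.69, adjusted p = 0.053). In dKO cells the replicates overlapped, with 26.3, 16.7 and 20.6 TPM under vehicle and 35.7, 21.2 and 27.7 TPM after MTOB (0.39). Atp6v1b2 rose in wildtype (0.18, adjusted p = 0.0164) and dKO cells (0.22, adjusted p = 0.00545), with no overlap in either. Its wildtype call ended without wildtype vehicle replicate 1 or 3 or wildtype MTOB replicate 1 or 2 (0.05 to 0.0742), and its dKO call held without any single library but ended in the fit of only the compared groups (0.0551).

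With 4-Cl-HIPP few genes passed, among the lysosomal genes as among all genes. In wildtype cells 1 of the 45, Scarb2, rose, against 0.366% of all genes tested (0.324% higher), and none fell (0.0427%). With a fold above 1.5 none of the 45 passed in either genotype, against 0.11% of all genes higher and 0.0305% lower in wildtype and 0.122% higher and 0.0305% lower in dKO cells. Its values were 26.4, 25.5 and 27.2 TPM against 21.8, 19.8 and 19 TPM under vehicle, without overlap (log2 difference 0.37 ± 0.07, fold 1.29, adjusted p = 0.0211). The call ended without wildtype vehicle replicate 2 or 3 or any wildtype 4-Cl-HIPP replicate (adjusted p = 0.0657 to 0.123). It also ended in a fit of only the compared groups (0.221), with the replicate block (0.0538) and without a variance trend (0.0522). In dKO cells Scarb2 measured 39.2, 40.7 and 39.4 TPM after 4-Cl-HIPP, above the vehicle values, and did not pass. No gene of the list passed in dKO cells with limma, where 0.501% of all genes passed (0.403% higher and 0.0977% lower). In dKO cells 8 of the 45 and 1388 of all 16383 genes had an unadjusted p below 0.05. Ctsb fell past the threshold there without dKO MTOB replicate 3 (-0.20, adjusted p = 0.0108), against an adjusted p of 0.089 with all libraries. The median log2 difference was -0.01 in wildtype and -0.03 in dKO cells. Mcoln1, at 38.7, 43.3 and 36.3 TPM in dKO 4-Cl-HIPP cells, had the highest difference there (0.30 ± 0.10, adjusted p = 0.304).

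Whether an inhibitor response differed between the genotypes was tested as an interaction. None of the 45 genes passed for MTOB with limma, against 0.0916% of all genes (0.0855% higher and 0.0061% lower in wildtype). An unadjusted p below 0.05 was reached by 2 of the 45 and by 1128 of all 16383 genes. The pair with the smallest p were Tpp1, with a response of 0.20 in wildtype and -0.37 in dKO cells (difference 0.57, 95% interval 0.31 to 0.84, adjusted p = 0.149), and Ctsl, with 0.64 and 0.19 (difference 0.45, 95% interval 0.23 to 0.68, adjusted p = 0.188). For 4-Cl-HIPP none of the 45 passed, beside 0% of all genes. There 3 of the 45 and 734 of all 16383 genes had an unadjusted p below 0.05. A p above the threshold does not show that the responses were equal.

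The genes were also counted by the letters TCACGTG in their promoter windows. Under vehicle 4 of the 12 genes with them were higher in dKO cells and none was lower (median log2 difference of the 12 of 0.16). These 4 were Atp6v1a, Ctsd, Glb1 and Lamp1. Of the 26 tested genes without them 9 were higher and 2 lower (median 0.08), against 7.01% and 3.72% of all genes. Under MTOB 5 of the 12 and 8 of the 26 were higher (6.98% of all genes), and under 4-Cl-HIPP 4 and 9 (6.6%). Whether genes with and without the letters differ was not tested. With MTOB in wildtype cells none of the 12 rose and 3 fell (Glb1, Lamp1 and Naglu). Of the 26 without the letters 6 rose and 6 fell, against 3.8% and 3.46% of all genes. With MTOB in dKO cells none of the 12 rose and 1 fell (Lamp1). Of the 26 without the letters 2 rose and 7 fell, against 3.04% and 3.54% of all genes. Scarb2, Ctsz and Psap, which differed between the genotypes under each treatment, have a window without these letters, which says only that they are absent from those 300 bases.

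Other genes of the pathway were examined as a second list of 82, also chosen with earlier results known, of which 78 were tested. In dKO vehicle cells 15 were higher and 4 lower (24.4%, against 10.7% of all genes), in MTOB cells 14 and 4 (23.1% against 11.2%), and in 4-Cl-HIPP cells 14 and 3 (21.8% against 10.2%). With MTOB 6 rose and 7 fell in wildtype (16.7% against 7.26%) and 5 rose and 7 fell in dKO cells (15.4% against 6.58%). Other V-ATPase subunits had 4 of 8 higher in dKO cells under vehicle, MTOB and 4-Cl-HIPP, against 7.01%, 6.98% and 6.6% of all genes. Of the 10 subunits above, 2, 4 and 2 were higher in the same order of treatments. The other classes had a smaller share of calls. Under vehicle, where 7.01% of all genes were higher and 3.72% lower, 4 of 17 autophagy genes were higher and none was lower. Of 14 other TFE-family and nutrient-sensing genes 1 was higher (7.14%), close to the share of all genes, and none was lower. Of 25 other hydrolases and cofactors 4 were higher and 2 lower, and of 14 other membrane proteins and transporters 2 were higher and 2 lower. Atp6v0c, the proton-carrying ring subunit, measured 264, 266 and 270 TPM in wildtype and 350, 350 and 349 TPM in dKO vehicle cells (log2 difference 0.39, adjusted p = 8.39e-06).

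Mitf, another member of the TFE family, was higher in dKO cells and rose with MTOB in both genotypes. It measured 11.1, 11.5 and 10.1 TPM in wildtype and 17.2, 17.3 and 17 TPM in dKO vehicle cells (0.61, adjusted p = 4.64e-05). After MTOB it measured 14.3, 15.9 and 15.9 TPM in wildtype (0.46, adjusted p = 0.00129) and 26.9, 28.1 and 24.3 TPM in dKO cells (0.59, adjusted p = 0.000173). After 4-Cl-HIPP it rose in wildtype cells to 14.3, 17 and 14.9 TPM (0.46, adjusted p = 0.0141), a call that ended without wildtype vehicle replicate 3 (0.0863) or wildtype 4-Cl-HIPP replicate 2 (0.0803). In dKO cells it measured 23.2, 22.8 and 20.4 TPM after 4-Cl-HIPP, above the vehicle values, and did not pass.

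Sqstm1, the autophagy receptor p62, had the largest MTOB response of either list, from 136, 138 and 127 TPM to 300, 328 and 303 TPM in wildtype (log2 difference 1.21, fold 2.31, adjusted p = 1.52e-08) and from 178, 164 and 152 TPM to 380, 331 and 339 TPM in dKO cells (1.08, fold 2.12, adjusted p = 6e-08). Slc15a3, a lysosomal peptide and histidine transporter, rose from 10.1, 10.5 and 10.2 TPM to 26.1, 23.6 and 23.5 TPM in wildtype (1.17) and from 7.77, 7.62 and 8.35 TPM to 15.6, 16.8 and 13.9 TPM in dKO cells (0.88). M6pr, the cation-dependent mannose 6-phosphate receptor that delivers hydrolases, rose by 0.37 and 0.35. Lgmn, the asparaginyl endopeptidase, and Grn, progranulin, fell in both genotypes (Lgmn -0.44 and -0.40, Grn -0.39 and -0.39). These calls passed without any single library and under every alternative.

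Between the genotypes the widest gaps of the second list lay in hydrolases and cofactors of low level. Galc, galactosylceramidase, measured 6.54, 6.37 and 7.8 TPM in wildtype and 1.36, 1.54 and 1.16 TPM in dKO vehicle cells (log2 difference -1.75, adjusted p = 1.7e-06). Ctso, cathepsin O, measured 0.888, 1.53 and 1.57 TPM against 4.1, 4.29 and 5.39 TPM (1.27, adjusted p = 6.45e-05). Neither gene's groups overlapped under any treatment. Grn, which passed with genotype as well as with MTOB, measured 120, 117 and 120 TPM in wildtype and 180, 164 and 165 TPM in dKO vehicle cells (0.51, adjusted p = 2.42e-06).

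Of the 45 genes, 27 passed in at least 1 of the 9 comparisons. The other 18 were Atp6ap1, Atp6v0d1, Atp6v1c1, Atp6v1d, Atp6v1h, Cd63, Cln3, Ctsa, Ctsc, Flcn, Gaa, Galns, Gla, Hexa, Lamp2, Mcoln1, Ppt1 and Tfeb, whose log2 differences in the 7 comparisons other than the interactions ranged from -0.29 (Cln3, 4-Cl-HIPP in dKO cells) to 0.45 (Gla, genotype under 4-Cl-HIPP).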

How the data were processed

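RNA of J774.1 cells was extracted after 4 h of treatment and sequenced in 18 samples (TruSeq unstranded libraries; the labels call the molecule polyA RNA while the methods mention rRNA depletion). The authors quantified genes with Salmon 1.9.0 on the Gencode M28 (GRCm39) transcriptome and deposited 1 table with TPM for each sample, headed as scaled TPM. The deposited TPM sum to between 999766 and 999897 in each sample, so sequencing depth is unknown and no counting interval is given. The table also holds a mean normalized count over all samples, a signal that the authors computed with DESeq2 1.44.0, and the authors' own log2 fold changes and adjusted p-values per comparison, which were not used.

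Genes above the 10th percentile of the mean normalized count (0.222) were kept, 16383 of 18204. A model of 6 group means was fitted on log2(TPM + 1) with limma 3.58.1 (R 4.3.3), with a variance trend on the mean normalized count, 12 residual degrees of freedom and Benjamini-Hochberg adjustment over all genes. A count model could not be used, since no counts were analysed here. The fit was tried on simulated data whose changes were larger than most differences reported here, in genes above a count limit. That trial says nothing about small differences or about genes of low count. The libraries do not mark strand, so reads from overlapping genes on opposite strands, such as Atp6v1a and Naa50, cannot be told apart where they overlap. Differences of log2(TPM + 1) understate changes of genes with low TPM. Samples were grouped by genotype and treatment from their titles, and the replicates are described as biological triplicates. Genotypes were compared under each treatment, inhibitors with vehicle within each genotype, and responses between genotypes as interactions.

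The 46 genes and the second list were chosen with earlier results of these data known, so their counts are descriptions beside the share of all genes that passed. Every gene of the list is accounted for. Values in every sample are given for Tfeb, Tfe3, Flcn, Mcoln1 and Gpnmb and for up to 8 genes per comparison with the smallest adjusted p-value below 0.05, and the second list is named for up to 6 genes per comparison by the same rule, with Ctbp1 and Ctbp2 as a check of the knockout. The 4-Cl-HIPP comparisons of the second list are given for Mitf only, and 1 gene of that list is not reported here. Alternatives were a pseudocount of 0.1 or 5, no filter, a mean normalized count of at least 10, rescaling by median of ratios, quantile normalization, only the compared groups in the fit, a replicate block, no variance trend, and each of the 18 samples left out. Promoter windows came from RefSeq and their positions from an exact match to GRCm39.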

Additional observations from a re-analysis of the deposited data

How the results depend on the processing

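For 114 results, which are every call over the 45 genes, all inhibitor and genotype comparisons of Tfeb, Tfe3, Flcn, Mcoln1 and Gpnmb, and the interactions of Tpp1 and Ctsl, 2839 alternative values kept their direction and side of the threshold, 210 lost the call, 9 gained one and 19 changed sign. Other genes of the list gained 18 calls with 1 library left out and 11 under other settings (Atp6v0b, Ctsa, Ctsb, Ctsd, Ctsl, Cln3 and Gusb). Calls that ended numbered 28 in the fit of only the compared groups, 17 without a variance trend, 10 by quantile normalization, 6 with the replicate block, 5 by median of ratios, 4 with a pseudocount of 0.1, 1 with a pseudocount of 5 and 1 without a filter. Every median over the 45 genes stayed within the replicate spread (SD 0.0494 of the median log2 level). Rescaling moved the median of all genes by less than 0.1 in every comparison. Of the 45 genes, fitting only the compared groups left 11 past the threshold for MTOB in wildtype and 5 for MTOB in dKO. It left 11 of them for dKO against wildtype under MTOB and 0 for 4-Cl-HIPP in wildtype, with fewer residual degrees of freedom. Over all genes that fit called 699 against 1189 for MTOB in wildtype, 305 against 1078 for MTOB in dKO, 24 against 60 and 9 against 82 for 4-Cl-HIPP in wildtype and dKO, 995 against 1829 for dKO against wildtype under MTOB, and 2 against 0 for the 4-Cl-HIPP interaction. The MTOB interaction had 15 calls over all genes, 10 in the compared groups, 8 with the replicate block and 6 without a variance trend. Leaving out single libraries gave 11 to 17 of the 45 genes for MTOB in wildtype (11 without wildtype vehicle replicate 1 or 3). It gave 7 to 12 of them for MTOB in dKO (7 without dKO vehicle replicate 1), 0 to 1 for 4-Cl-HIPP in either genotype and 13 to 19 for dKO against wildtype under MTOB. Without a variance trend 0 of the 45 genes passed for 4-Cl-HIPP in wildtype, where 41 of all genes passed.

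Sign changes concerned only values near 0 that never passed. By median of ratios, Tfe3 with 4-Cl-HIPP in dKO was -0.003 and Mcoln1 between genotypes under vehicle -0.01. By quantile normalization the latter was -0.033, Tfeb between genotypes under vehicle -0.013 and Flcn between genotypes under 4-Cl-HIPP -0.011. Over single libraries left out the ranges were -0.166 to 0.011 for Flcn with 4-Cl-HIPP in dKO, -0.064 to 0.002 for Flcn with MTOB in wildtype, -0.073 to 0.104 for Flcn between genotypes under 4-Cl-HIPP, -0.062 to 0.131 for Mcoln1 with MTOB in dKO, -0.031 to 0.053 for Mcoln1 between genotypes under vehicle, -0.066 to 0.098 for Tfe3 with 4-Cl-HIPP in dKO, -0.197 to 0.014 for Tfe3 between genotypes under MTOB and -0.029 to 0.099 for Tfeb between genotypes under vehicle.

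Same-numbered replicates of different groups did not deviate together (residual correlations of -0.141 to 0.091, median -0.009, 0 of 45 above 0.1), so the numbers are not taken as pairs. With the replicate block 0 of the 45 genes passed for 4-Cl-HIPP in wildtype, where 44 of all genes passed. The other counts over the 45 genes moved by less than 1.5 times. DESeq2 was not run because no counts were analysed here, and the depth of the libraries, which limits the precision of low genes such as Ctsh and Gpnmb, is unknown.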
